A study of Mus musculus with 4 samples.

Results

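A group of S100 genes was followed across thymic epithelial cells (TECs) of the mouse: S100a8, S100a9, S100a14, S100a4, S100a6, S100a10 and S100a11. They are 7 of the 31053 features in the count files, and all 7 are among the 23558 genes found in more than 5 cells. The members were chosen by measured values: S100a8 and S100a9 were selected on their UMIs in Aire-stage cells of these same 4 libraries, and the other 5 as epithelial members of the family. All levels given here are therefore a description.

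S100 proteins are small calcium-binding proteins built around a pair of EF hands, and most work as dimers. S100A8 and S100A9 form calprotectin, which fills the cytoplasm of neutrophils, binds zinc and manganese, and acts as an alarmin outside the cell. The epithelial members bind partners inside the cell, such as annexins and nonmuscle myosin, and most of them do so when calcium rises. In the thymus, medullary TECs (mTECs) that carry the regulator Aire transcribe many genes of other tissues, and the TNF receptor family members RANK and CD40 drive mTEC maturation.

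The study asked what RANK and CD40 signals contribute to TECs, with droplet-based single-cell RNA-seq. WT-Control and WT-RANKL-Ab are wild-type C57BL/6 mice, and Cd40-/- Control and Cd40-/- RANKL-Ab are mice of that background without Cd40. The RANKL-Ab groups received a neutralizing antibody against RANKL subcutaneously at 5 mg/kg when 4 weeks old, and the Control groups received rat IgG. All mice were sampled 2 weeks later, at 6 weeks of age, and each condition has 1 library of EpCAM+ CD45- TER119- cells sorted from 3 pooled mice. There are no replicates, so no difference between conditions was tested.

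The files held 10590 barcodes and 95607338 UMIs for WT-Control, 7446 and 48888745 for WT-RANKL-Ab, 9118 and 66755852 for Cd40-/- Control, and 2099 and 19175068 for Cd40-/- RANKL-Ab. After filtering, 10218, 7164, 8591 and 2082 cells remained in that order, with median depths of 7621, 6086, 6267 and 7531.5 UMIs. Where 4 values follow each other without names, they keep this order of libraries. Levels are UMIs per 1000000 UMIs (CPM) summed over the cells of a class. Every interval is an exact 95% interval for counting error and covers nothing else.

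The labels were checked against marker genes. Epcam, the epithelial marker of the sort, stood at 834 CPM in WT-Control against 722 in WT-RANKL-Ab, with 652 in Cd40-/- Control against 523 in Cd40-/- RANKL-Ab. Ptprc, which encodes CD45 and should be absent, was detected at 5.98, 26.9, 41.0 and 58.5 CPM. Cd40 itself stood at 110, 28.8, 5.75 and 4.75 CPM, so transcripts were scarce but present in both knockout libraries. Aire stood at 333, 34.5, 283 and 2.77 CPM, and the antibody libraries were low in both genotypes.

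Some cell barcodes occurred in more than 1 library. The pair Cd40-/- Control and Cd40-/- RANKL-Ab shared 205 barcodes among cells kept, and in 182 of them the Cd40-/- Control cell held under 10% of its partner's UMIs. Over the 205 pairs the median depths were 723 and 24072 UMIs. The other pairs shared 102, 116, 26, 97 and 17 barcodes, with 0 to 3 such cells per pair. Without the shared-barcode cells of Cd40-/- Control, S100a8 stood at 467 CPM there in place of 466. Without every cell that shares a barcode, the log2 ratio of S100a6 over all cells from WT-Control to Cd40-/- RANKL-Ab was 1.11 in place of 0.87, which is past 2-fold.

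Cells were placed in classes by marker genes. Ccl21a-high mTECs numbered 3172 in WT-Control against 3242 in WT-RANKL-Ab, with 1712 in Cd40-/- Control against 958 in Cd40-/- RANKL-Ab, and Aire+ mTECs 3214, 336, 2013 and 4. Cortical TECs (cTECs) numbered 192, 738, 836 and 440, Tuft cells 383, 575, 227 and 59, and progenitor-like cells 126, 472, 290 and 218. Aire+ cells were thus plentiful in both Control libraries and too few in Cd40-/- RANKL-Ab for any value. Of the cells of all libraries, 447 Aire+, 166 Ccl21a-high, 176 cTEC, 23 Tuft and 189 progenitor-like cells left their class when the marker thresholds were halved, and 993, 2422, 330, 304 and 324 when they were doubled. Clusters of like cells placed 70.8% of the Aire+ cells, 61.2% of the Ccl21a-high cells, 75.4% of the cTECs, 98.6% of the Tuft cells and 94.2% of the progenitor-like cells in the class of the same name.

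Over all cells, S100a8 and S100a9, the calprotectin subunits, were the genes that differed most. S100a8 stood at 630 CPM in WT-Control against 30.5 in WT-RANKL-Ab, with 466 in Cd40-/- Control against 3.76 in Cd40-/- RANKL-Ab. S100a9 stood at 264, 7.998, 141 and 0.0522 CPM. Both were high in the Control libraries of either genotype and low after the antibody. S100a8 was 20.6-fold lower in WT-RANKL-Ab than in WT-Control (log2 interval -4.44 to -4.29), 1.35-fold lower in Cd40-/- Control and 168-fold lower in Cd40-/- RANKL-Ab (-7.74 to -7.06). Single cells weigh on the low values: 67 of the 72 S100a8 UMIs of Cd40-/- RANKL-Ab lay in 1 cell, and 1 cell held 21.0% of those of WT-RANKL-Ab. S100a9 was 33.0-fold lower in WT-RANKL-Ab (-5.19 to -4.90) and 1.88-fold lower in Cd40-/- Control. Cd40-/- RANKL-Ab held 1 UMI of S100a9, and the log2 interval of its ratio ran from -17.61 to -9.83.

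S100a14, an epithelial member expressed in keratinizing tissues, stood at 890 CPM in WT-Control against 276 in WT-RANKL-Ab, with 655 in Cd40-/- Control against 121 in Cd40-/- RANKL-Ab. S100a4, which binds nonmuscle myosin IIA, stood at 71.9, 24.0, 49.1 and 9.97 CPM. These genes followed the same order of libraries with smaller differences: S100a14 was 3.22-fold lower in WT-RANKL-Ab (log2 interval -1.72 to -1.66) and 7.38-fold lower in Cd40-/- RANKL-Ab, and S100a4 2.99-fold and 7.21-fold lower.

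The annexin-binding members went the other way or stayed close. S100a10, the annexin A2 partner that does not itself bind calcium, stood at 420 CPM in WT-Control against 874 in WT-RANKL-Ab, with 602 in Cd40-/- Control against 1185 in Cd40-/- RANKL-Ab. S100a11, a partner of annexins A1 and A2, stood at 1511, 2203, 1688 and 2264 CPM. S100a6 (calcyclin) stood at 703, 678, 629 and 1287 CPM. Both antibody libraries were high in S100a10 and S100a11, whereas S100a6 was high in Cd40-/- RANKL-Ab alone. S100a10 was 2.08-fold higher in WT-RANKL-Ab (log2 interval 1.04 to 1.08) and 2.82-fold higher in Cd40-/- RANKL-Ab, S100a11 1.46-fold and 1.498-fold higher, and S100a6 1.04-fold lower and 1.83-fold higher.

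Among knockouts alone, the antibody library was set against its own Control. S100a8 was 124-fold lower in Cd40-/- RANKL-Ab than in Cd40-/- Control (log2 interval -7.31 to -6.62), S100a14 5.43-fold lower (-2.50 to -2.38) and S100a4 4.93-fold lower (-2.52 to -2.09). The ratio of S100a9, with 1 UMI in Cd40-/- RANKL-Ab, had a log2 interval of -16.70 to -8.92. S100a10 was 1.97-fold higher (0.95 to 1.00), S100a11 1.34-fold higher and S100a6 2.05-fold higher (1.01 to 1.06). Several members thus differed by other amounts than in wild-type mice, where S100a8 was 20.6-fold lower and S100a6 1.04-fold lower after the antibody. Between the antibody libraries, Cd40-/- RANKL-Ab had 8.12-fold less S100a8 than WT-RANKL-Ab (-3.38 to -2.68), 2.29-fold less S100a14 and 2.41-fold less S100a4, and of S100a9 1 UMI against 389. It had 1.90-fold more S100a6, 1.36-fold more S100a10 and 1.03-fold more S100a11. The S100a8 value rests on 72 UMIs, 67 of them in 1 cell. The difference between genotypes was not tested.

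**Figure D1:**
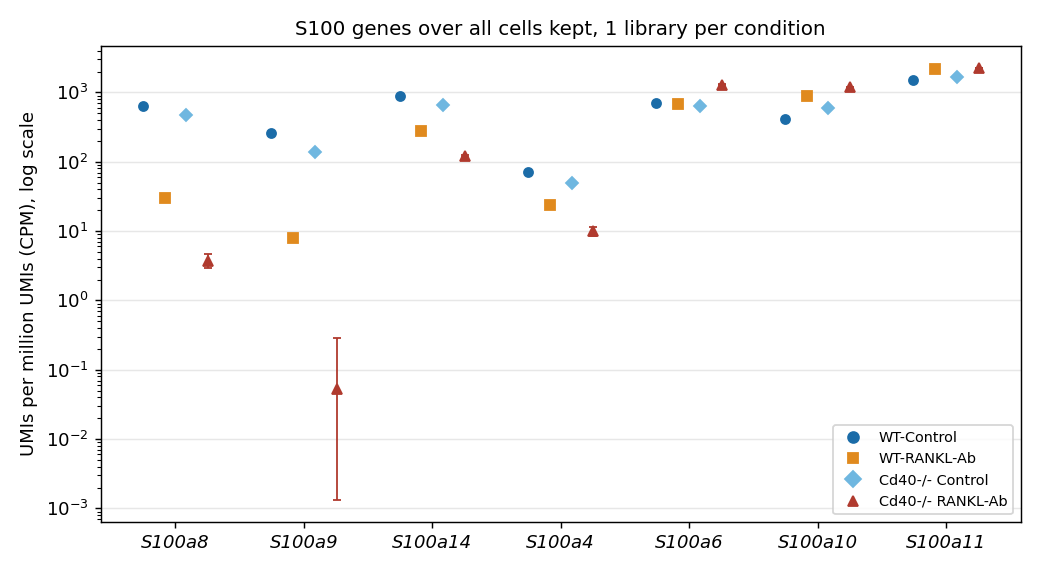
Level of each S100 gene over all cells kept, in CPM on a log axis, with 1 point per library and exact 95% Poisson intervals. S100a8 runs from 630 CPM in WT-Control to 3.76 CPM in Cd40-/- RANKL-Ab, while S100a10 runs from 420 to 1185 CPM.

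A gene counts as past 2-fold when its ratio to WT-Control, with 1 CPM added, exceeds 2 in either direction and the 2 libraries together hold at least 20 UMIs. All comparisons share WT-Control, so they are not independent of each other. Over all cells, 5 of the 7 genes were past 2-fold in WT-RANKL-Ab (4 lower, 1 higher), beside 18.1% of all genes. In Cd40-/- Control it was 0 of 7 beside 3.64%, and in Cd40-/- RANKL-Ab 5 of 7 (4 lower, 1 higher) beside 28.1%. S100a8 and S100a9 were selected on Aire-stage cells, which are few in the antibody libraries, so nothing is read from these shares. Averaging each cell's own CPM gave 3 of 7 in WT-RANKL-Ab, with log2 ratios of 0.69 for S100a10 and -0.98 for S100a4. Without the 5% deepest cells S100a10 stood at 0.84 in place of 1.06. The members' median log2 ratio was -1.54, -0.44 and -2.73 in the 3 comparisons, beside -0.01, 0.06 and -0.07 for all genes. Among TECs without the classes that hold thymocyte markers, the counts were 5 of 7 beside 18.4%, 0 beside 2.66%, and 6 (4 lower, 2 higher) beside 28.6%. The sixth, S100a6, had a log2 ratio of 1.08 there, which TMM factors changed to 0.98.

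Within classes the counts varied with the class and the library. Among Aire+ mTECs, 2 of 7 genes (S100a8 and S100a9, both lower) were past 2-fold in WT-RANKL-Ab beside 17.1%, and 0 in Cd40-/- Control beside 2.11%. In Ccl21a-high mTECs it was 2 in WT-RANKL-Ab beside 5.56%, 0 in Cd40-/- Control beside 6.18%, and 3 (S100a8 and S100a9 lower, S100a6 higher) in Cd40-/- RANKL-Ab beside 12.7%. In Tuft cells, 3 were lower in WT-RANKL-Ab beside 5.41%, 0 in Cd40-/- Control beside 8.45%, and 4 lower in Cd40-/- RANKL-Ab beside 15.5%. In cTECs, 3 were lower in WT-RANKL-Ab beside 9.26%, 5 in Cd40-/- Control beside 13.4%, and 4 in Cd40-/- RANKL-Ab beside 10.7%. In progenitor-like cells, 4 were lower in WT-RANKL-Ab beside 6.5%, 2 in Cd40-/- Control beside 12.9%, and 4 in Cd40-/- RANKL-Ab beside 7.7%. Outside Aire+ mTECs many of these counts rest on WT-Control alone. In the antibody comparisons of the other 4 classes, S100a8 and S100a9 reached the minimum only through WT-Control (113 and 71 UMIs in progenitor-like cells, 1734 and 471 in Ccl21a-high mTECs), apart from S100a8 in Ccl21a-high mTECs (42 UMIs) and S100a9 in Tuft cells (24 UMIs) of WT-RANKL-Ab. The same holds for S100a4 in progenitor-like cells of both Cd40-/- libraries and in Tuft cells of Cd40-/- RANKL-Ab. Such genes could only count as lower, so the counts of these classes are not read against the shares of all genes. With classes taken from clusters, the cTEC count was 1 in each of the Cd40-/- libraries, and the progenitor-like counts were 2, 0 and 1.

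S100a8 belonged mainly to Aire+ mTECs, which held 78.3% of its UMIs in WT-Control. There it stood at 1212 CPM in WT-Control and 425 in WT-RANKL-Ab, against 1153 in Cd40-/- Control, and S100a9 at 519, 93.2 and 343 CPM. Aire+ cells of WT-RANKL-Ab thus carried less of both genes, while those of Cd40-/- Control stood near WT-Control for S100a8. S100a8 was 2.85-fold lower in WT-RANKL-Ab (log2 interval -1.60 to -1.42) and 1.05-fold lower in Cd40-/- Control, and S100a9 5.57-fold (-2.67 to -2.29) and 1.51-fold lower. In WT-RANKL-Ab, 312 of the 1045 S100a8 UMIs of the class lay in 1 cell. With classes taken from clusters, the log2 ratio of S100a8 in WT-RANKL-Ab was -0.98 in place of -1.51, which is not past 2-fold.

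Shares of cells with a UMI were counted after each cell had been thinned to 1000 UMIs. S100a8 was found in 26.3% of Aire+ mTECs of WT-Control (832 of 3160, interval 24.8 to 27.9), 8.65% of WT-RANKL-Ab (27 of 312, 5.78 to 12.3) and 27.1% of Cd40-/- Control (533 of 1968, 25.1 to 29.1). Thymocyte-like cells, which should lack the gene, gave the background: 8.89% in WT-Control (4 of 45) and 0.901% in Cd40-/- Control, with 0 of 184 cells in WT-RANKL-Ab (which allows up to 1.63%) and 0 of 173 in Cd40-/- RANKL-Ab (up to 1.73%). The value of WT-Control is uncertain (interval 2.48 to 21.2): 105 of the 270 S100a8 UMIs of its thymocyte-like cells lay in 1 cell, and 7.41% of these 54 cells fell in cluster 9, a cluster of Aire+ cells. Aire+ shares stood above it in each of these 3 libraries. Without thinning the Aire+ shares were 44.6%, 12.8% and 43.3%, at median depths of 11456.5, 6624.5 and 9723 UMIs, beside 2447.5, 1653 and 1253 UMIs in thymocyte-like cells. S100a9 was found in 14.6%, 3.85% and 12.8% of thinned Aire+ cells and in 26.7%, 5.95% and 24.2% without thinning. Its background in WT-Control was 6.67% of the same 45 cells, too few to place the Aire+ share of S100a9 above it.

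The presence of 1 calprotectin subunit went with that of the other. Among thinned Aire+ cells of WT-Control, 343 held both, 489 S100a8 alone, 119 S100a9 alone and 2209 neither. S100a8 was found in 74.2% of the cells with S100a9 (interval 70.0 to 78.2) and in 18.1% of those without it (16.7 to 19.6). Cd40-/- Control gave 76.2% and 19.9%, and WT-RANKL-Ab 58.3% (27.7 to 84.8, from 7 cells with both) and 6.67%. Most cells with S100a8 thus lacked a UMI of S100a9 at this depth. For comparison, S100a8 was found in 26.0% of Aire+ cells with S100a14 and 27.1% of those without it in WT-Control, so that pair showed no such overlap.

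The proportion of the subunits varied. Aire+ mTECs held 2.34 S100a8 UMIs per S100a9 UMI in WT-Control (interval 2.30 to 2.38), against 4.56 in WT-RANKL-Ab (3.95 to 5.29) and 3.36 in Cd40-/- Control (3.27 to 3.45). Across the classes of WT-Control the ratio ran from 1.39 (1.10 to 1.78), in a small class gated on Hes6, Utf1, Tmem158 and Nkx6-2, to 8.13 (6.01 to 11.2) in neuroendocrine cells. In Cd40-/- Control the same classes gave 4.82 (3.68 to 6.39) and 0.75 (0.558 to 1.004), so their order was not the same in both Control libraries. Few cells carry these counts: in the cluster that holds most neuroendocrine cells, 9.80% of 102 cells of WT-Control held S100a8.

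Aire+ cells were not uniform either. The gated class covers several clusters, whose levels are given over all cells of the cluster, gated as Aire+ or not. Cluster 9 (1925 cells in WT-Control), which held 46.1% of the class in WT-Control, stood at 2045 CPM of S100a8 there and 1502 in WT-RANKL-Ab, against 1848 in Cd40-/- Control. Cluster 8, with 27.1% of the class, stood at 455, 472 and 654 CPM. Without thinning, 60.6%, 38.4% and 60.1% of the cells of cluster 9 held S100a8, and 31.6%, 5.15% and 33.6% of those of cluster 8. Cluster 8 of WT-RANKL-Ab thus had few cells with S100a8 (5.15% of 136 cells), and its level rests on them. Cluster 9 of WT-RANKL-Ab held 73 cells with a median depth of 2273 UMIs, against 10894 in WT-Control. S100a9 stood at 935, 518 and 559 CPM in cluster 9 and at 120, 2.73 and 163 CPM in cluster 8. In WT-RANKL-Ab the Aire+ class was spread otherwise, with 26.2% in cluster 8, 23.5% in cluster 11 and 18.2% in cluster 15.

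Neutrophils are the best-known source of calprotectin, so their markers were read beside it. All 11 genes of the neutrophil list had UMIs in WT-Control, as they did in Cd40-/- Control, beside 10 in WT-RANKL-Ab (Elane at 0) and 8 in Cd40-/- RANKL-Ab (Csf3r, Retnlg and Elane at 0). The list summed to 233, 80.1, 149 and 51.6 CPM, with Camp its most abundant gene in both Control libraries and Mmp9 in both antibody libraries. Csf3r, the G-CSF receptor of neutrophils, had 32, 4, 13 and 0 UMIs in whole libraries, and the surface marker Ly6g 5054, 56, 2379 and 3. Of the granule genes, Camp had 7386, 232, 2665 and 65 UMIs and Ltf 1188, 109, 1045 and 163. Mmp9 had 4418, 3443, 2097 and 747 UMIs, and from Control to antibody it fell by less than the total UMIs of the libraries did. The list as a sum was thus low after the antibody, while Mmp9 was not.

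Within Aire+ mTECs of WT-Control, cells with S100a8 held 365 CPM of the neutrophil list and cells without it 258 CPM. The figures were 136 (29 UMIs, interval 91.3 to 196) and 82.0 CPM (70.6 to 94.7) in WT-RANKL-Ab, and 300 and 176 CPM in Cd40-/- Control. The defining genes Csf3r, Retnlg, Ly6g and Cxcr2 alone summed to 124 CPM in cells with S100a8 and 67.1 in cells without it in WT-Control, and to 23.5 and 2.23 in WT-RANKL-Ab, from 5 UMIs each. In the Control libraries the list was thus higher in cells with S100a8, while in WT-RANKL-Ab the intervals overlapped. Aire was also higher in cells with S100a8, at 704 against 618 CPM in WT-Control, 794 against 508 in WT-RANKL-Ab and 738 against 656 in Cd40-/- Control. Epithelial genes (Epcam, Krt8, Krt18 and Cdh1) stood at 3271 CPM in cells with S100a8 and 3702 CPM in cells without it in WT-Control. Median depths were 12286 and 10745 UMIs in WT-Control and 2432 (43 cells) and 7197 (293 cells) in WT-RANKL-Ab. The part of neutrophil transcripts in the result was not tested.

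Lists for other cells gave further values over all cells. Macrophage genes (7 of 7 with UMIs in each library, most abundant Lyz2) summed to 496 CPM in WT-Control against 94.7 in WT-RANKL-Ab, with 408 in Cd40-/- Control against 10.2 in Cd40-/- RANKL-Ab, and hemoglobin genes (3 of 3 in each) to 181, 3.06, 55.4 and 0.627 CPM. B cell genes (3 of 3, in Cd40-/- RANKL-Ab 2 of 3 with Ms4a1 at 0; most abundant Cd79b) summed to 36.3, 23.5, 29.0 and 6.89 CPM. These lists were low where S100a8 was low. Thymocyte genes (8 of 8 in each) stood at 70.8, 334, 392 and 751 CPM. They were higher after the antibody in each genotype, but also higher in Cd40-/- Control than in WT-RANKL-Ab. Fibroblast genes (5 of 5) stood at 18.9, 11.6, 28.2 and 28.1 CPM, and endothelial genes (3 of 3, most abundant Pecam1) at 5.92, 8.78, 10.9 and 10.2 CPM. Epithelial genes (4 of 4) stood at 4019, 5242, 4123 and 6715 CPM. Apart from Ms4a1, no gene of these lists was at 0 in any library, and their part in the result was not tested.

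Outside the Aire+ class S100a8 was lower. In WT-Control the order of classes was Aire+ mTECs at 1212 CPM, thymocyte-like cells at 952 (54 cells), neuroendocrine cells at 929, microfold cells at 890, then ungated cells at 657, keratinocyte or enterohepatic cells at 414, ciliated cells at 414, cTECs at 160, Ccl21a-low cycling cells at 158, progenitor-like cells at 120, Ccl21a-high cycling cells at 100.6, Ccl21a-high mTECs at 75.1, the class gated on Hes6 and Utf1 at 74.6 and Tuft cells at 42.6. Intervals of thymocyte-like, neuroendocrine and microfold cells overlapped, as did those of keratinocyte or enterohepatic with ciliated cells. The interval of cTECs overlapped those of Ccl21a-low cycling and of progenitor-like cells. Those of progenitor-like with Ccl21a-high cycling cells overlapped too, and those of Ccl21a-high mTECs with the Hes6 and Utf1 class. For S100a9, thymocyte-like cells (613 CPM) and Aire+ mTECs (519 CPM) led with overlapping intervals. Tuft cells were last at 15.1 CPM, with an interval that overlapped that of Ccl21a-high mTECs. UMIs of S100a8 and S100a9 thus also lay in cells gated on thymocyte genes.

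Ccl21a-high mTECs, which secrete the chemokine CCL21, held 75.1 CPM of S100a8 in WT-Control against 1.85 in WT-RANKL-Ab, with 44.0 in Cd40-/- Control against 0.506 in Cd40-/- RANKL-Ab. Its thinned share there was 2.64%, 0.156%, 1.32% and 0 of 951 cells (which allows up to 0.315%), and in no library does it stand clear of the share in thymocyte-like cells, few of which held the gene in WT-Control. cTECs held 160, 0.584, 27.1 and 0.195 CPM, progenitor-like cells 120, 0.324, 65.4 and 0 CPM (a floor of 1.66), and Tuft cells 42.6, 0.503, 29.2 and 0 CPM (a floor of 6.84). Their thinned shares in WT-Control were 6.29%, 3.97% and 1.32% in the order cTECs, progenitor-like and Tuft cells, beside 8.89% in thymocyte-like cells, and 1.19%, 1.41% and 1.35% in Cd40-/- Control, beside 0.901%. These shares could not be told from background either, so no difference between libraries is read from the levels. The progenitor-like level of WT-Control rests on 113 UMIs, 53 of them in 1 cell. In Tuft cells and cTECs the values also depended on the classes: taken from clusters, the log2 ratio of Cd40-/- Control was 1.15 for S100a8 and 1.85 for S100a9 in Tuft cells, and -0.65 for S100a8 in cTECs in place of -2.52.

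**Figure D2:**
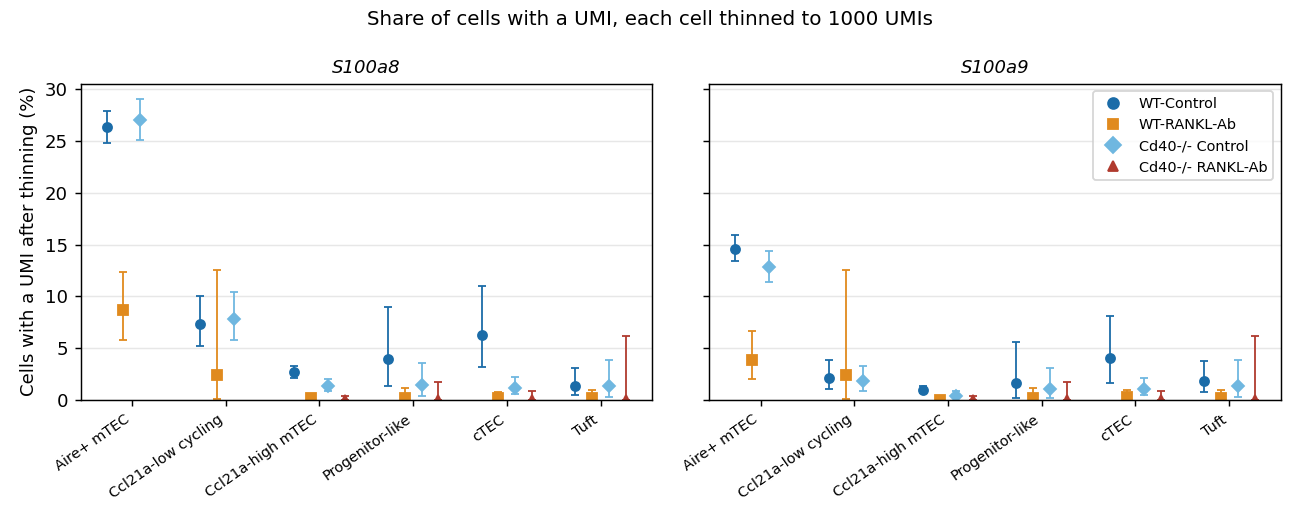
Share of cells with a UMI of S100a8 or S100a9 in each class, after thinning every cell to 1000 UMIs, with exact 95% Clopper-Pearson intervals and 1 point per library with enough cells. Aire+ mTECs stand at 26.3% in WT-Control and 8.65% in WT-RANKL-Ab for S100a8.

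S100a14 was also highest in Aire+ mTECs, but its level there barely differed between libraries. It stood at 1571 CPM in WT-Control and 1447 in WT-RANKL-Ab, against 1403 in Cd40-/- Control, and after thinning was found in 68.2%, 60.6% and 65.9% of the cells (96.1%, 83.3% and 93.6% without thinning), beside 17.8%, 2.17% and 3.604% of thymocyte-like cells. In WT-Control the next classes were Ccl21a-low cycling cells at 887 CPM and the class gated on Hes6 and Utf1 at 843 CPM, whose intervals overlapped, and then neuroendocrine cells at 622 CPM. In Ccl21a-low cycling cells, dividing cells with little Ccl21a, S100a14 was 4.55-fold lower in WT-RANKL-Ab, at 195 CPM in 42 cells, of which 35.7% fell in a cluster with thymocyte and cTEC genes. Ccl21a-high mTECs held 219, 220, 142 and 128 CPM of S100a14, and the class held different clusters in different libraries. Over all cells of cluster 2 S100a14 stood at 82.5, 84.97, 53.3 and 115.01 CPM, and over those of cluster 7 at 120.4, 154, 115.01 and 151 CPM, so Cd40-/- RANKL-Ab was not low within these clusters. In cluster 5 the levels were 146, 176, 114 and 120.3 CPM. Its thinned share in that class was 15.3%, 16.97%, 10.2% and 11.5%, which in WT-Control does not exceed the thymocyte-like background.

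S100a4 was the scarcest of the epithelial members. Aire+ mTECs held 118 CPM in WT-Control and 120 in WT-RANKL-Ab, against 100.4 in Cd40-/- Control, and Ccl21a-high mTECs 17.4, 15.8, 13.3 and 15.4 CPM. Neither class was past 2-fold from WT-Control in any library, in contrast to the sum over all cells. In WT-Control, neuroendocrine cells (150.1 CPM) and Aire+ mTECs had overlapping intervals at the head of the order. Its thinned share in Aire+ mTECs was 10.5%, 11.9% and 9.71%, and 48.8%, 31.2% and 45.5% without thinning, beside a thymocyte-like background of 0 of 45 cells, 0.543% and 1.802%. Ccl21a-high cells of the wild-type libraries gave 1.35% and 1.75%, near that background. In cTECs the gated classes put S100a4 at 38.2, 12.8, 8.52 and 6.04 CPM, while clusters turned the direction, with log2 ratios of 1.03, 0.15 and 0.13 against WT-Control. In WT-Control, 11.5% of the gated cTECs lay in cluster 9, the cluster highest in S100a8.

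S100a6, which binds annexins and the calcyclin-binding protein, was highest in Cd40-/- RANKL-Ab, where 78.3% of its UMIs lay in 1 class, the Ccl21a-high mTECs. In Ccl21a-high mTECs it stood at 843 CPM in WT-Control against 718 in WT-RANKL-Ab, with 1075 in Cd40-/- Control against 2442 in Cd40-/- RANKL-Ab. The antibody library was low among wild-type mice and high among knockouts. Cd40-/- RANKL-Ab was 2.90-fold higher than WT-Control (log2 interval 1.51 to 1.56), 2.27-fold higher than Cd40-/- Control and 3.40-fold higher than WT-RANKL-Ab. After thinning, S100a6 was found in 44.9%, 41.9%, 55.6% and 76.0% of the cells, and without thinning in 83.1%, 77.7%, 86.8% and 96.0% at median depths of 6214, 6568.5, 5703.5 and 7515 UMIs. Thymocyte-like cells gave a thinned background of 13.3%, 2.72%, 4.05% and 4.05%, with a median of 1615 UMIs in Cd40-/- RANKL-Ab.

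The class held different clusters in different libraries, so S100a6 was also read within clusters. In cluster 2, which held 50.3% of Ccl21a-high mTECs of Cd40-/- RANKL-Ab and 20.7% of those of Cd40-/- Control, it stood at 1187 CPM in WT-Control against 1111 in WT-RANKL-Ab, with 1225 in Cd40-/- Control against 2948 in Cd40-/- RANKL-Ab. In cluster 5 the levels were 935, 825, 1075 and 2337 CPM, and in cluster 7 they were 899, 774, 1056 and 1829 CPM. Cd40-/- RANKL-Ab was thus the highest library in each of these clusters. By its markers cluster 2 is placed in the progenitor-like class when classes are taken from clusters, and the log2 ratio in Ccl21a-high mTECs from WT-Control was then 1.21 in place of 1.53. Cluster 1 was an exception, at 412, 345, 749 and 611 CPM.

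In other classes S100a6 followed other orders. Progenitor-like cells held 1387, 1443, 847 and 1146 CPM, cTECs 440.0, 277, 154 and 329 CPM, and Tuft cells 284, 196, 340.4 and 221 CPM. Aire+ mTECs held 663 CPM in WT-Control and 947 in WT-RANKL-Ab, against 673 in Cd40-/- Control. Classes from clusters gave a log2 ratio of -1.06 in Aire+ mTECs of WT-RANKL-Ab in place of 0.51, which turns its direction. In WT-Control the order began with ciliated cells at 1921 CPM, progenitor-like cells at 1387, ungated cells at 1257, keratinocyte or enterohepatic cells at 1043, then neuroendocrine cells at 886, microfold cells at 867 and Ccl21a-high mTECs at 843, of which the last 3 had overlapping intervals.

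In WT-Control S100a10 was highest in cTECs and progenitor-like cells, although Ccl21a-high mTECs held 41.6% of its UMIs. In cTECs it stood at 1430 CPM in WT-Control against 1843 in WT-RANKL-Ab, with 1580 in Cd40-/- Control against 1596 in Cd40-/- RANKL-Ab. Progenitor-like cells held 1127, 1336, 1023 and 1128 CPM, Ccl21a-high mTECs 720.5, 711, 785 and 1019 CPM, and Aire+ mTECs 224 CPM in WT-Control and 237 in WT-RANKL-Ab, against 261 in Cd40-/- Control. Within these classes no library was past 2-fold from WT-Control, unlike the sum over all cells. Its thinned share in cTECs was 56.6%, 63.0%, 68.6% and 65.1%, beside 35.6%, 40.2%, 40.5% and 32.4% in thymocyte-like cells, and 88.0%, 87.4%, 93.5% and 93.9% without thinning. Thymocyte-like cells thus held S100a10 in every library, whereas for S100a8 they had 0 of 184 and 0 of 173 cells in the antibody libraries. Whether their S100a10 is background was not tested, and no class is read against it. The thinned Aire+ shares were 14.2%, 16.7% and 16.1%. In Ccl21a-low cycling cells S100a10 was 8.25-fold higher in WT-RANKL-Ab, at 1526 CPM against 185 CPM, in the same 42 cells. That level is above the progenitor-like cells of that library. Of the 42 cells, 35.7% fell in cluster 18, which has thymocyte and cTEC genes. All cells of cluster 18 in WT-RANKL-Ab held 1831 CPM. In WT-Control 93.9% of the class fell in cluster 0, so the class did not hold the same cells in both libraries.

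S100a11 was the most even member. In WT-Control the order began with microfold cells at 3189 CPM, then cTECs at 2286 and progenitor-like cells at 2149 with overlapping intervals, then Tuft cells at 1940.0 and Ccl21a-high mTECs at 1883, again overlapping. Across libraries, cTECs held 2286, 3077, 2499 and 2484 CPM, Ccl21a-high mTECs 1883, 2109, 2164 and 2603 CPM, and Tuft cells 1940.0, 1832, 1783 and 1930.1 CPM. Aire+ mTECs held 1257 CPM in WT-Control and 1767 in WT-RANKL-Ab, against 1458 in Cd40-/- Control. WT-Control was the lowest library in 3 of these 4 classes. The thinned share was 79.9%, 82.6%, 83.7% and 87.6% in Ccl21a-high mTECs, beside 26.7%, 21.2%, 25.2% and 19.1% in thymocyte-like cells (not tested as background either), and 97.7%, 98.6%, 98.2% and 99.6% without thinning. In Aire+ mTECs it was 64.1% in WT-Control and 78.2% in WT-RANKL-Ab, against 70.7% in Cd40-/- Control, so this member was broadly detected in both classes.

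**Figure D3:**
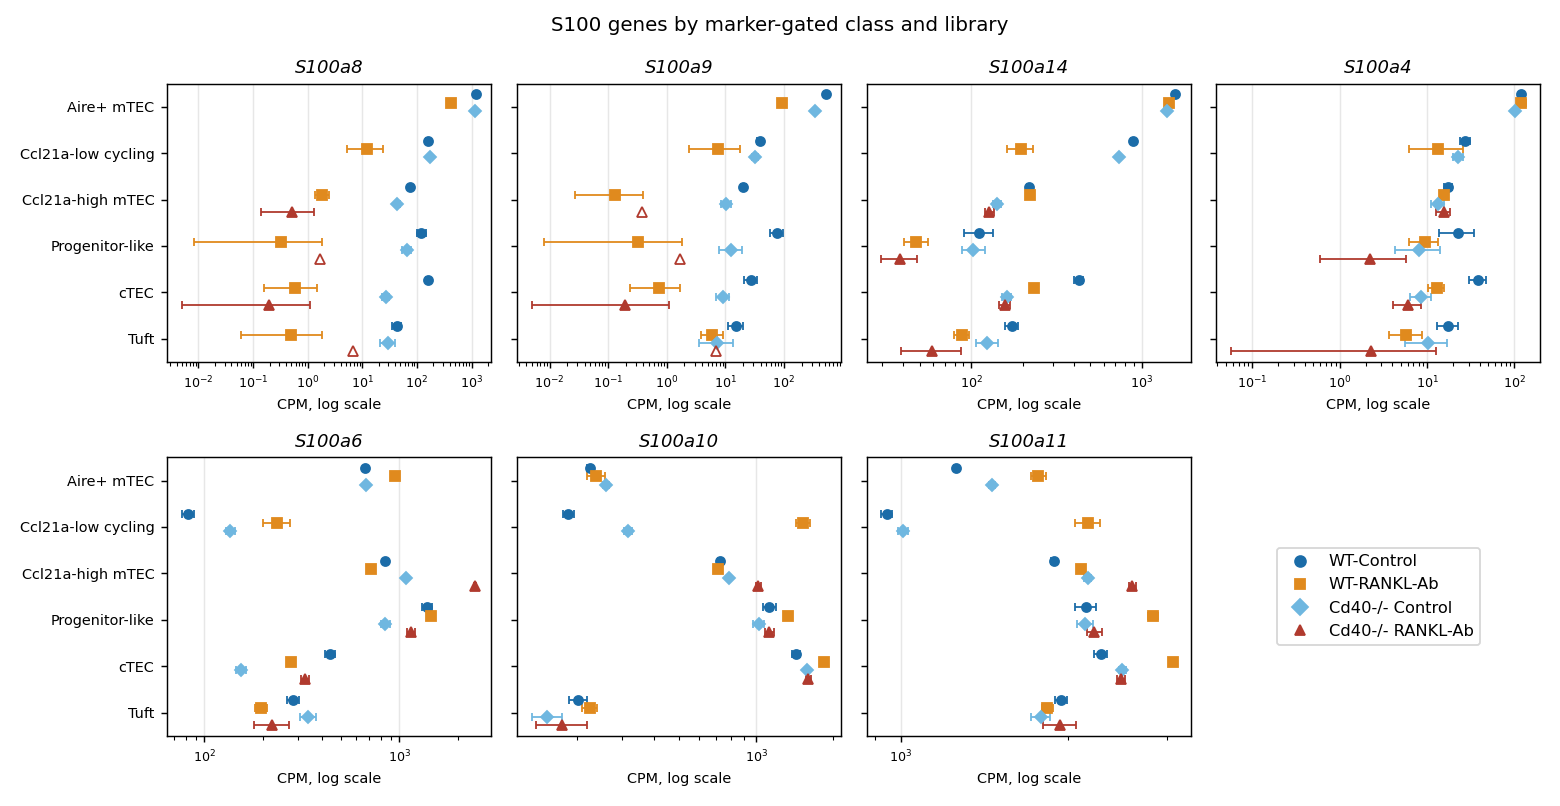
Level of each S100 gene in 6 classes, in CPM on a log axis, with 1 point per library and exact 95% Poisson intervals; open points mark 0 UMIs, drawn at the floor of 3 UMIs. S100a6 in Ccl21a-high mTECs stands apart in Cd40-/- RANKL-Ab at 2442 CPM.

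Since the libraries differ in their classes, levels were also computed with the class shares of WT-Control. For WT-RANKL-Ab this covered 12 classes with 99.0% of the UMIs of WT-Control. S100a8 was then 192 CPM, against 32.6 CPM observed and 635 CPM in WT-Control, and S100a9 43.3 against 8.55 and 266 CPM. S100a14 was 754 against 291 and 904 CPM, and S100a4 67.2 against 25.4 and 72.6 CPM. With equal class shares, S100a14 and S100a4 thus stood near WT-Control, while S100a8 and S100a9 remained lower. S100a10 was 596 against 854 and 418 CPM, S100a11 2046 against 2265 and 1517 CPM, and S100a6 842 against 720 and 696 CPM. For Cd40-/- Control, over 13 classes, S100a8 was 585 against 502 and 632 CPM and S100a10 479.6 against 571 and 417 CPM. With cluster classes S100a8 of WT-RANKL-Ab was 297 CPM in place of 192. Cd40-/- RANKL-Ab had enough cells in 5 classes, which cover 39.3% of the UMIs of WT-Control, so no such level is given.

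Other S100 genes were read as a list of 10. Over all cells 7 of them were lower past 2-fold and 0 higher in WT-RANKL-Ab (median log2 ratio -1.58), 3 lower in Cd40-/- Control (-0.33), with 7 lower in Cd40-/- RANKL-Ab (-2.09). Over all genes, 13.6%, 1.11% and 18.9% were lower past 2-fold. In Cd40-/- RANKL-Ab, S100a5, S100a7a, S100b and S100z (0, 0.888, 0.209 and 0.835 CPM) reached the minimum of 20 UMIs only through WT-Control. The same holds for S100b in WT-RANKL-Ab (0.288 CPM). Such genes could only count as lower, so the counts of the antibody libraries are not read against these shares. Among TECs without the classes that hold thymocyte markers, 1 of the 10 was lower in Cd40-/- Control, beside 0.92% of all genes. S100g, the calbindin-D9k of intestine, stood at 373 CPM in WT-Control against 44.9 in WT-RANKL-Ab, with 158 in Cd40-/- Control against 5.22 in Cd40-/- RANKL-Ab. It was low in both antibody libraries, as S100a8 was. S100a3, a gene of the hair cuticle, stood at 133, 54.8, 105 and 19.9 CPM, S100a16 at 839, 712, 675 and 458 CPM, and S100a1 at 344, 412, 329 and 428 CPM. Within classes the values differed from these sums. In Aire+ mTECs of WT-Control, WT-RANKL-Ab and Cd40-/- Control, S100a3 stood at 231, 217 and 226 CPM. S100a16 stood at 1253, 1836 and 1115 CPM there, and S100a13 at 543, 383 and 343 CPM. In WT-RANKL-Ab, 2 of 10 were lower past 2-fold in Aire+ mTECs, beside 13.9% of all genes. In Ccl21a-high mTECs it was 1 of 9, beside 4.54%.

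Partners inside the cell differed among themselves. Of 7 partner genes, 2 were higher past 2-fold in WT-RANKL-Ab (median 0.55), 0 in Cd40-/- Control (0.09), with 3 in Cd40-/- RANKL-Ab (0.76), and over all cells none was lower past 2-fold. Over all genes, 4.45%, 2.53% and 9.15% were higher past 2-fold in these comparisons. Anxa2, which forms a heterotetramer with S100A10, stood at 410 CPM in WT-Control against 976 in WT-RANKL-Ab, with 436 in Cd40-/- Control against 1180 in Cd40-/- RANKL-Ab. Ahnak, a large scaffold protein that binds that complex, stood at 74.1, 167, 130 and 235 CPM. Both were high in the antibody libraries, whereas Anxa1 stood at 243, 215, 214 and 291 CPM. Within Ccl21a-high mTECs Anxa2 stood at 1010, 1285, 1126 and 1830 CPM and Anxa1 at 564, 259, 672 and 497 CPM, which is lower past 2-fold in WT-RANKL-Ab (-1.12). Myh9, the myosin that S100A4 binds, stood over all cells at 59.1, 93.8, 102 and 125 CPM.

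Receptors of extracellular calprotectin were scarce. Tlr4 stood at 2.45 CPM in WT-Control against 2.41 in WT-RANKL-Ab, with 3.38 in Cd40-/- Control against 3.86 in Cd40-/- RANKL-Ab, and Ager, which encodes RAGE, at 4.53, 2.67, 3.70 and 1.62 CPM. Bsg, which encodes basigin, was far more abundant at 286, 363, 283 and 341 CPM. Of 5 receptor genes, 1 was higher past 2-fold in WT-RANKL-Ab (median -0.01), 0 in Cd40-/- Control (-0.01), and 1 was higher and 1 lower in Cd40-/- RANKL-Ab (0.43). Beside 18.1%, 3.64% and 28.1% of all genes past 2-fold, counts of 0 to 2 of 5 say little about the receptors.

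Genes of other calcium-binding families and of the cornified envelope served for comparison. Of 10 calcium-binding genes, 2 were lower past 2-fold in WT-RANKL-Ab (median 0.20), 0 in Cd40-/- Control (-0.00), with 4 in Cd40-/- RANKL-Ab (-0.32). Beside 13.6%, 1.11% and 18.9% of all genes lower past 2-fold, the count in WT-RANKL-Ab is close to the background. Calb2, which encodes calretinin, stood at 42.4, 1.48, 29.2 and 0.0522 CPM. Of 8 cornified-envelope genes, which lie among the S100 genes on the chromosome, 5 were lower in WT-RANKL-Ab (median -1.34), 1 in Cd40-/- Control (-0.01), with 6 in Cd40-/- RANKL-Ab (-2.91), beside the same shares of all genes. In Cd40-/- RANKL-Ab, Ivl, Crnn, Flg and Lor (0, 0, 0.365 and 0.731 CPM) reached the minimum of 20 UMIs only through WT-Control. So did Calb1 (0.209 CPM) and Calb2 of the calcium-binding list. These genes could only count as lower, so both counts of that library are not read against the shares. Sprr1a, a cross-linked envelope protein gene, stood at 164, 40.03, 141 and 8.14 CPM over all cells. In keratinocyte or enterohepatic cells it stood at 1066 CPM in WT-Control and 2985 in WT-RANKL-Ab (37 cells), against 1136 in Cd40-/- Control. The list also varied by class in WT-RANKL-Ab. In Aire+ mTECs 3 of 7 were lower and 1 higher, beside 13.9% and 3.22% of all genes. In Ccl21a-high mTECs 4 of 6 were lower, beside 4.54%, and in Tuft cells 3 of 5 were higher, beside 2.30%.

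Levels across 50 pairs of class and library were correlated among the members and with those of 13767 genes with enough UMIs outside the S100 family, as a description of points that share libraries and cells. S100a8 and S100a9 had r = 0.93 with each other, S100a14 and S100a4 r = 0.81, and S100a8 and S100a10 r = -0.38. Since S100a8 and S100a9 were both selected on Aire-stage cells of these libraries, nothing is read from their r. Outside the family, the gene most like S100a8 was Csn2 (r = 0.94), followed by Marc1, Serpinb12, Calcb and Calb1. For S100a9 it was Gip (0.91), before Pla2g1b, Calca, Ly6g and Ptgds. For S100a14 it was Fezf2 (0.93), a transcription factor of mTECs, before Fam89a, Tdh, Hagh and Bspry, and for S100a4 it was Cadps (0.92), before Tnfrsf17, Vmo1, H2-Ob and Gm10165. Tnfsf12 (0.80) led for S100a6 before Antxr2, Ly6a, Urah and Il17rc, Lamb3 (0.88) for S100a10 before Lamp2, Mgat3, Scarf2 and Slc45a4, and Cttn (0.88) for S100a11 before Ctnna1, Csf2ra, Tapbp and Rnf11.

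All 7 genes lie on chromosome 3 (GENCODE M21 on GRCm38), between 90526856 and 93564643. That stretch holds 73 protein-coding genes, the 7 members included. S100a8 (ENSMUSG00000056054) lies at chr3:90668978-90670035 on the plus strand and S100a9 (ENSMUSG00000056071) at chr3:90692632-90695721 on the minus strand, as neighbours 22596 bases apart. S100a14 (ENSMUSG00000042306) lies at chr3:90526856-90528837, S100a4 (ENSMUSG00000001020) at chr3:90603771-90606045 and S100a6 (ENSMUSG00000001025) at chr3:90612882-90624181. S100a11 (ENSMUSG00000027907) at chr3:93520488-93526287 and S100a10 (ENSMUSG00000041959) at chr3:93555080-93564643 are neighbours 28792 bases apart. The neighbours S100a8 and S100a9 had r = 0.93 and the neighbours S100a10 and S100a11 r = 0.42, while S100a6, which lies between S100a4 and S100a8, had r = 0.55 with S100a4 and 0.37 with S100a8. Pairs that are not neighbours also had high values. S100a8 had r = 0.75 with S100a4 and 0.65 with S100a14, and S100a6 had 0.53 with S100a11. The order of r thus did not follow nearness.

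Promoter sequences of 5 of the 7 genes were in the RefSeq set used here (GRCm38.p6), which held no entry for S100a14 and S100a10. The 250 bases before each start were searched on both strands for the NF-kB core GGNNNTTCC, found in 15.7% of 32851 promoters, the AP-1 motif TGANTCA, found in 6.75%, and the C/EBP motif TTGCNNAA, found in 9.56%. The NF-kB core was found in none of the 5, the AP-1 motif in S100a11 alone, with 2 matches, and the C/EBP motif in S100a9 alone, with 1. A match is a description of the letters. The neighbours S100a8 and S100a9, both selected on Aire-stage cells, are shown 5′ to 3′ with the match in capitals. S100a8 is at chr3:90668821-90668977 on the plus strand, less 93 bases inside the gene, and S100a9 at chr3:90695722-90695971 on the minus strand.
S100a8: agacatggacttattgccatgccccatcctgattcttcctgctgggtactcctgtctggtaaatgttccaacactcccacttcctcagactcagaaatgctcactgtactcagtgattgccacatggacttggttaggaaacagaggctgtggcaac
S100a9: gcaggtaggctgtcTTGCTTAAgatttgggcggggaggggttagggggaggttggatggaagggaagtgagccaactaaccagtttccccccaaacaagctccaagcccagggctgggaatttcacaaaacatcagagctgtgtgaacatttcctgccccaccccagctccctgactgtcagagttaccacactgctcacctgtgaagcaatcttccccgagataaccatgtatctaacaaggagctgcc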

How the data were processed

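Thymic epithelial cells of 4 conditions were measured as UMIs per gene and cell. The authors mapped reads to mm10 and counted UMIs with Cell Ranger, version 5.1 per the labels and 5.0.1 per the file headers; the deposited files hold UMI counts, as whole numbers, for called barcodes. Cells with fewer than 200 genes or over 25% mitochondrial UMIs were left out (Python 3.11.15 with scipy 1.17.1, numpy 2.4.6, pandas 2.3.3 and matplotlib 3.10.9). This removed 79, 73, 178 and 4 cells for genes and 293, 209, 349 and 13 for mitochondrial UMIs. No doublet caller was run, so classes may hold doublets.

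Classes were gated per cell on the marker UMIs per 10000 UMIs. The thresholds were set after the data had been seen, from the overlap with clusters and not from S100 levels. The members, the markers and the gene lists were chosen with earlier results of these data known. Clusters (25) came from Scanpy 1.11.5 and python-igraph 0.11.9, with 1992 of 2000 features, 30 components, 20 neighbours and resolution 1.2. The lists were 10 other S100 genes, 7 partners, 5 receptors, 10 calcium-binding genes and 8 cornified-envelope genes, beside markers of neutrophils (11 genes), macrophages, fibroblasts, endothelium, B cells, erythroid cells, thymocytes and epithelium.

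UMIs were summed per class and library and scaled to 1000000. Intervals are Poisson for levels, Clopper-Pearson for shares and conditional binomial for ratios. Of each member, the 5 genes most like it were named, by Pearson's r of log2 CPM with 10 CPM added. They were taken among genes outside the S100 family with at least 500 UMIs. Classes with under 20 cells in a library have no value. Cells under 1000 UMIs (570, 492, 806 and 74) were left out of thinned shares. The floor for 0 is 3 UMIs or cells. Intervals were checked on simulated counts.

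Alternatives were TMM factors (edgeR 4.0.16, R 4.3.3), totals without Ccl21a, CPM averaged over single cells, 10 CPM added, a threshold of 1.5-fold, a mitochondrial limit of 13%, classes from clusters, marker thresholds halved or doubled, cells with at least 2000 UMIs, no cells with thymocyte markers, and thinning to 2000 UMIs or none. Leaving out shared barcodes and the 5% deepest cells was added after seeing the data.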

Additional observations from a re-analysis of the deposited data

Results flagged for a closer look

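S100a6 stands out because in some classes it had opposite directions after the antibody in the 2 genotypes. Over all cells its log2 ratio of antibody to Control was -0.052 (-0.07 to -0.03) in wild-type mice and 1.03 (1.01 to 1.06) in Cd40-/- mice. The wild-type value is small and depends on the cells used: over 12 classes of TECs it was 0.049 (720 against 696 CPM), and 0.27 with the class shares of WT-Control. In Ccl21a-high mTECs the ratios were -0.23 (-0.26 to -0.20) and 1.18 (1.15 to 1.22), and in cTECs -0.66 (-0.78 to -0.55) and 1.09 (0.98 to 1.21). The cTEC class held different clusters in different libraries, with 11.5% of it in cluster 9 in WT-Control and 23.2% in cluster 21 in WT-RANKL-Ab. Over all cells of cluster 20 S100a6 went from 274 to 222 CPM in wild-type and from 138 to 345 CPM in Cd40-/- mice, while in cluster 21 it rose in both, from 116 to 243 and from 215 to 596 CPM. Other classes had the same direction in both genotypes: progenitor-like cells went from 1387 to 1443 CPM in wild-type and from 847 to 1146 CPM in Cd40-/- mice, and Tuft cells from 284 to 196 and from 340.4 to 221 CPM. The difference between the genotypes was not tested, since each condition has 1 library.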

How the results depend on the processing

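Of 260 recomputed counts of genes past 2-fold, 234 stayed within 1.5 times the reported count and 26 did not. For the 57 log2 ratios past 2-fold, 734 values were recomputed: 697 kept their side of the threshold, 30 did not and 7 turned direction. Of ratios not past 2-fold, 3 turned and passed it with clusters: S100a6 in Aire+ mTECs of WT-RANKL-Ab (-1.06), and S100a8 (1.15) and S100a9 (1.85) in Tuft cells of Cd40-/- Control. For levels in a class, 49 of 66 stayed within their interval, and for shares of cells 26 of 66, since shares rise with depth. All 20 counts were equal without the shared-barcode cells of Cd40-/- Control. Without every shared-barcode cell, the count over all cells of Cd40-/- RANKL-Ab was 6 and that of Tuft cells of WT-RANKL-Ab 4, and the others were equal. TMM factors moved all genes by up to -0.18 on the log2 scale.

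The count over all cells was 3 in WT-RANKL-Ab with CPM averaged over cells, and 1 in Cd40-/- Control with TMM factors or at 1.5-fold. Among TECs it was 3 and, at 1.5-fold, 1. In Ccl21a-high mTECs of Cd40-/- Control it was 1 with TMM factors, 1 with clusters, 2 with thresholds doubled and 3 at 1.5-fold. In progenitor-like cells clusters gave 2 in WT-RANKL-Ab and 1 in Cd40-/- RANKL-Ab, beside 0 in Cd40-/- Control. The Cd40-/- Control count was 0 averaged over cells, 1 with 10 CPM added, and 4 with thresholds halved or at 1.5-fold. Aire+ mTECs of Cd40-/- Control had 1 at 1.5-fold. Tuft cells had 1 in WT-RANKL-Ab with 10 CPM added or thresholds doubled, and in Cd40-/- Control 1 with TMM factors and 2 with clusters or at 1.5-fold. cTECs had 5 in WT-RANKL-Ab with thresholds doubled or at 1.5-fold, and with clusters 1 in Cd40-/- Control, as in Cd40-/- RANKL-Ab (1).

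With clusters, S100a4 turned to log2 ratios of 0.26 in WT-RANKL-Ab and 0.30 in Cd40-/- RANKL-Ab in progenitor-like cells, and to 1.03, 0.15 and 0.13 in cTECs. S100a14 turned to 0.011 in progenitor-like cells and 0.082 in cTECs of Cd40-/- RANKL-Ab. Levels at the class shares of WT-Control became, for WT-RANKL-Ab, 297 CPM for S100a8, 54.7 for S100a9, 964 for S100a14, 671 for S100a6 and 516 for S100a10. For Cd40-/- Control they became 614 for S100a8, 187 for S100a9, 802 for S100a14, 63.2 for S100a4, 437 for S100a10 and 1642 for S100a11. The cause was not tested for any of these.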
